A study of Mus musculus with 8 samples.

Results

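The genes described here are 10 regulators of the pluripotent state of mouse embryonic stem cells (mESCs), namely Pou5f1, Nanog, Sox2, Klf4, Klf2, Esrrb, Tfcp2l1, Prdm14, Dppa3 and Tbx3, out of 20807 protein-coding genes on the autosomes, 20721 of which had a scored bin. They were chosen by name. Their compartment scores were read from the 100-kb bins that each gene body overlaps in mm10, with 500 kb of flank on each side, in 8 Hi-C libraries that held 1 library for each group. Hi-C counts how often pairs of loci touch in fixed nuclei, and the compartment score is the first eigenvector of a chromosome's contact map, with positive values in compartment A, where chromatin is mostly active, and negative values in compartment B, where it is mostly silent. Scores are unitless. All cells were mESCs grown with LIF, serum and serum replacement on gelatin.

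In the Setdb1 line, a conditional Setdb1 knockout, untreated cells were called Setdb1 WT, cells given the G9a/GLP inhibitor UNC0642 (2 µM for 3 days) were Setdb1 WT + UNC, and cells given 4-hydroxytamoxifen (800 nM for 5 days), which deletes Setdb1, were Setdb1 KO. Setdb1 KO + UNC cells received 4-hydroxytamoxifen for 2 days and then UNC0642 for 3 days. No Setdb1 WT cells received 4-hydroxytamoxifen, so loss of SETDB1 and exposure to that drug cannot be told apart. The Suv39h WT clone and the Suv39h DKO clone, which lacks both SUV39H1 and SUV39H2, were each studied without and with the same dose of UNC0642, and clone and genotype cannot be told apart between them. G9a, GLP, SETDB1 and SUV39H1/2 are histone H3 lysine 9 (H3K9) methyltransferases. With 1 library in each group, a difference between 2 libraries has no replicate check. The files give no read counts. The study lists read numbers for each repeat of each group, but the repeat or pool behind a file is not stated, so no counting error was set on a score. The files hold no expression values, so the labelled cell type could not be checked with marker genes.

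Over all bins, the 28 pairs of libraries correlated at Pearson r from 0.958 to 0.990. For the compartment score, the study lists a Pearson r between the repeats of each group, and each of these lies within this range. Setdb1 WT + UNC stood apart from its line. Its mean r was 0.972 with the other Setdb1 libraries and 0.976 with the Suv39h libraries, whereas each of the other 7 libraries correlated more closely with its own line. Where Setdb1 WT + UNC decides a result, this is therefore stated, and the result without it is given where that was counted.

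Mouse pluripotency is held by a network of transcription factors that bind each other's enhancers. OCT4 (the product of Pou5f1) and SOX2 bind DNA side by side at a composite motif, NANOG joins them at many of the same enhancers, and LIF signalling through STAT3 feeds the network by way of Klf4 and Tfcp2l1. ESRRB, KLF2, TBX3 and PRDM14 help hold the naive state, and Dppa3 (also Stella) encodes a factor of the egg and early embryo that guards DNA methylation. Genes that a cell type transcribes usually lie in A, while B overlaps lamina-associated domains rich in H3K9 dimethylation.

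The promoters of Pou5f1, Nanog and Klf4 are shown because these genes stood at the top of the order of placement, on a small A island between B bins, and at the bottom of the order. The bases run 5′ to 3′ up to the more upstream of the start sites in RefSeq and GENCODE (RefSeq, GRCm38.p6, which shares coordinates with mm10). Capitals mark GGGCGG (the GC box bound by SP and KLF proteins), ATGCAAA (the core of the OCT4 octamer) and CATTGT (a SOX motif), each searched on both strands.
Pou5f1, chr17:35505782-35506017, plus strand: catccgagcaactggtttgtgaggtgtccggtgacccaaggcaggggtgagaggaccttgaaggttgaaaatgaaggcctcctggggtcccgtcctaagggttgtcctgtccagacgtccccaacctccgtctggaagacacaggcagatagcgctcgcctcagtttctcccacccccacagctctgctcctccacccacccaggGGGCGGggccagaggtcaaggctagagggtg
Nanog, chr6:122707239-122707488, plus strand: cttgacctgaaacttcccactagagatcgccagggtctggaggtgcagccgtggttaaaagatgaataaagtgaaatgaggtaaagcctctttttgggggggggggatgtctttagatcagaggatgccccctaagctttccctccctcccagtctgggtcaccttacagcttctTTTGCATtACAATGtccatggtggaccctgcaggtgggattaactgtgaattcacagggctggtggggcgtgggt
Klf4, chr4:55532476-55532725, minus strand: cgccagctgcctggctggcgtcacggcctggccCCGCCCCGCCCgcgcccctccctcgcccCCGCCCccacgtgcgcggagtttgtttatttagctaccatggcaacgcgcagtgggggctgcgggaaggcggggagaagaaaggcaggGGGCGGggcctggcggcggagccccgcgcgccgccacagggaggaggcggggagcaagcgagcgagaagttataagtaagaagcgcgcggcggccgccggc
The Pou5f1 stretch held 1 GC box and 8 CG dinucleotides, and the Klf4 stretch held 4 GC boxes, some of which overlap, and 32 CG dinucleotides. The Nanog stretch held 3 CG dinucleotides and no GC box, and an octamer core and a SOX motif lay 1 base apart on its minus strand. Among the 32851 RefSeq promoters of 300 bases, 250 before and 50 after the start, 35.7% held GGGCGG, 4.63% ATGCAAA and 12.6% CATTGT. In the same 300-base windows, the number of CG dinucleotides was 40 in Klf4, 32 in Klf2, 27 in Sox2, 21 in Tfcp2l1, 11 and 6 in the 2 Pou5f1 promoters, 7 in each of the 2 Esrrb promoters and 4 in each of the 2 Nanog promoters, against a median of 7 over all promoters. The table gave promoters for 7 of the 10 genes. Klf4, with the most CG dinucleotides of these, was also the gene placed lowest of the 10. A match describes the letters only.

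To compare placement, each gene's mean score was ranked among the genes of its own chromosome, because eigenvectors of different chromosomes have different scales. All 10 genes lay in A in all 8 libraries. Over all protein-coding genes with a score, 70.8% lay in A in all 8 libraries, so the count alone does not set the pluripotency genes apart. The median of the genes' mean chromosome percentile was 71.1, against 51.0 over all genes, and 9 of the 10 genes stayed above the 50th percentile in every library. Klf4 was the exception. The bins of the 10 genes were also rich in GC bases, a property that the choice did not use. Their GC content exceeded that of 77.1% (Dppa3) to 94.7% (Pou5f1) of all bins, and its median was 46.1%, against 41.4% over all bins. How far GC content accounts for their placement was not tested.

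The order of mean percentile ran from Pou5f1 (94.4 ± 1.82, SD over 8 libraries) through Klf2 (91.0 ± 3.63), Esrrb (84.0 ± 5.16), Tfcp2l1 (83.6 ± 4.81), Tbx3 (73.6 ± 7.79), Prdm14 (68.7 ± 7.73), Sox2 (68.7 ± 3.94), Nanog (66.9 ± 4.56) and Dppa3 (62.8 ± 5.80) to Klf4 (31.7 ± 5.03). Most neighbours in this order were not separated beyond their spread. Esrrb lay above Tfcp2l1 in 4 of 8 libraries, Prdm14 above Sox2 in 4, and Sox2 above Nanog in 5. The gap between Dppa3 and Klf4 was the only step at which the ranges did not overlap, and Dppa3 lay above Klf4 in 8 of 8 libraries by 31.1 percentile points on average. The median range of a gene's score over the 8 libraries was 0.00980 for the 10 genes and 0.00922 for all genes. The median range of the percentile was 14.1 points for the 10 genes and 10.99 for all genes.

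**Figure D1:**
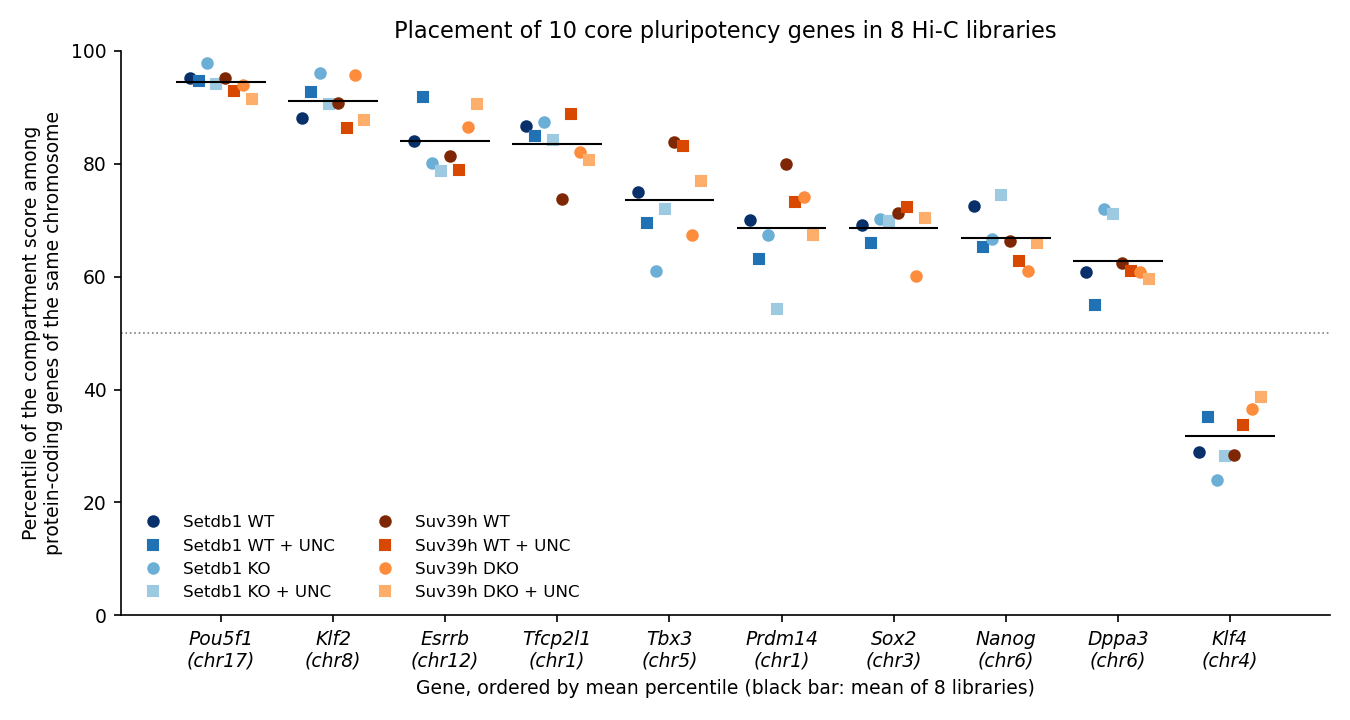
Percentile of each gene's compartment score among the protein-coding genes of its chromosome (y axis) for the 10 genes ordered by mean (x axis). Points are libraries (blue, Setdb1 line; orange, Suv39h line; squares, UNC0642), black bars are means, and the dotted line marks the 50th percentile. Klf4 lies between 24.0 and 38.7 in the 8 libraries, below the other 9 genes.

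Pou5f1 (ENSMUSG00000024406, chr17:35506018-35510772, plus strand) encodes OCT4, a factor that the pluripotent cells of the embryo require. It lay in a gene-dense stretch of chromosome 17 with 67 coding genes in its window, and its bin held 6. Its score was 0.0638 (WT), 0.0646 (WT + UNC), 0.0638 (KO) and 0.0631 (KO + UNC) in Setdb1 cells, and 0.0658 (WT), 0.0629 (WT + UNC), 0.0660 (DKO) and 0.0608 (DKO + UNC) in Suv39h cells. These values spanned 0.00525, the narrowest range of the 10 genes, and the lines overlapped. Every bin of its window was in A in all 8 libraries, and the A run around the gene was 2.9 to 3.0 Mb long. The lines did not overlap in 3 flank bins of 10 (13.1% of all bins did not). The bin at +100 kb averaged 0.0591 in Setdb1 cells and 0.0543 in Suv39h cells, and that at +500 kb 0.0406 and 0.0471. At -100 kb, the only 1 of the 3 to pass in limma, the Setdb1 line averaged 0.0408 and the Suv39h line 0.0530 (difference 0.0122 ± 0.00263, SE, adjusted p = 0.0215).

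Sox2 (ENSMUSG00000074637, chr3:34650405-34652461, plus strand), which encodes the DNA-binding partner of OCT4, was the only coding gene in its window. Its score was 0.0427 (WT), 0.0405 (WT + UNC), 0.0432 (KO) and 0.0425 (KO + UNC) in Setdb1 cells, and 0.0448 (WT), 0.0447 (WT + UNC), 0.0358 (DKO) and 0.0425 (DKO + UNC) in Suv39h cells. Suv39h DKO was the low library, 0.00907 below Suv39h WT. The bin of Sox2 and the next bin, at +100 kb, formed a peak over weak A chromatin. The +100 kb bin averaged 0.0467 and held no coding gene, and the other flank bins averaged 0.00547 to 0.0240. A distal enhancer, the Sox2 control region, is known to lie downstream of the gene, but no file used here gives its position. Sox2 exceeded the mean of its flanks by 0.0147 to 0.0282 in the 8 libraries. Of the flank bins, 4 did not overlap between the lines, those at -400, -300, -100 and +100 kb (4 of 10, with 13.1% over all bins), each of them higher in the Suv39h line and without a coding gene. The first 2 passed in limma and were higher in the Suv39h line by 0.00817 ± 0.00201 (adjusted p = 0.0344) and 0.0102 ± 0.00187 (adjusted p = 0.0115). The first of these bins was in A in 7 libraries and slightly negative (-0.000866) in Setdb1 KO + UNC.

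Nanog (ENSMUSG00000012396, chr6:122707489-122714633, plus strand) and Dppa3 (ENSMUSG00000046323, chr6:122626410-122630272, plus strand) lay in adjacent bins of chromosome 6, so their windows share bins and the 2 genes are not independent observations. Nanog scored 0.0384 (WT), 0.0326 (WT + UNC), 0.0343 (KO) and 0.0394 (KO + UNC) in Setdb1 cells, and 0.0327 (WT), 0.0300 (WT + UNC), 0.0288 (DKO) and 0.0310 (DKO + UNC) in Suv39h cells. It was lower in most Suv39h libraries. The lines overlapped only through Setdb1 WT + UNC, at 0.0326 against 0.0327 in Suv39h WT. Without that library, Nanog was 0.0343 or more in Setdb1 cells and 0.0327 or less in Suv39h cells. The limma difference between lines, with that library included, was -0.00554 ± 0.00223 (adjusted p = 0.151). Dppa3 scored 0.0299 (WT), 0.0254 (WT + UNC), 0.0373 (KO) and 0.0367 (KO + UNC) in Setdb1 cells, and 0.0300 (WT), 0.0288 (WT + UNC), 0.0282 (DKO) and 0.0276 (DKO + UNC) in Suv39h cells. The 2 highest Dppa3 values were thus those of the 2 libraries without SETDB1.

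Both genes sat on an A island 600 to 700 kb long. On the side of higher coordinates, the 4 bins at +200 to +500 kb from Nanog were in B in all 8 libraries. On the other side the bin at -500 kb from Nanog was near 0 (-0.00597 to 0.000178) and was in A only in Setdb1 WT + UNC. The island stood high over its surroundings. Nanog exceeded the mean of its flank bins by 0.0246 to 0.0302 and Dppa3 by 0.0213 to 0.0290. The edge next to Nanog differed between lines. The A bin at +100 kb averaged 0.0245 in Setdb1 cells and 0.0126 in Suv39h cells (difference -0.0119 ± 0.00267, adjusted p = 0.0249), and the B bin at +200 kb averaged -0.00603 and -0.0152 (difference -0.00916 ± 0.00215, adjusted p = 0.0292). Neither bin overlapped between the lines, and neither changed sign.

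Klf4 (ENSMUSG00000003032, chr4:55527143-55532466, minus strand) encodes a reprogramming factor that LIF induces through STAT3, and it had the lowest placement and the widest score range of the 10 genes. Its score was 0.01001 (WT), 0.0168 (WT + UNC), 0.00419 (KO) and 0.00910 (KO + UNC) in Setdb1 cells, and 0.00709 (WT), 0.0140 (WT + UNC), 0.0180 (DKO) and 0.0208 (DKO + UNC) in Suv39h cells. Setdb1 KO was lowest, the Suv39h DKO libraries were highest, and the range of 0.0166 exceeded that of 89.3% of genes. Klf4 lay on the slope from A to B. The 5 bins on its side of lower coordinates were in A in all 8 libraries. Toward higher coordinates, the side of the Klf4 promoter, the mean score fell from 0.0125 in the gene's bin to 0.00621 at +100 kb, -0.00172 at +200 kb, -0.00543 at +300 kb and -0.0113 at +400 kb. None of the 5 bins on that side held a coding gene.

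The border beyond Klf4 moved by a bin between libraries. The bin at +200 kb was in A in both Suv39h DKO libraries and in Setdb1 WT + UNC, and in B in the other 5 libraries, and that at +500 kb was in A in Suv39h DKO + UNC only. These A scores were small. At +200 kb they were 0.000258 (Suv39h DKO), 0.00604 (Suv39h DKO + UNC) and 0.00215 (Setdb1 WT + UNC), and at +500 kb 0.000739. Each was below the implied mean of chromosome 4 (0.00730 to 0.00893) used below, so their sign depends on centring too. The A run that held Klf4 measured 800 to 1100 kb. It reached 100 to 200 kb past the gene's bin on this side and 600 to 800 kb on the other, where it was longer only in the Suv39h DKO libraries. Placement of Klf4 in A depended on the centring of the scores, which average 0 on each chromosome in each library. With the implied mean of the chromosome added, Klf4 was in A in all 8 libraries. With the mean subtracted it was in A in 6, and scored -0.00311 in Setdb1 KO and -0.00150 in Suv39h WT. The other 9 genes were in A in all 8 libraries under either centring.

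Klf2 (ENSMUSG00000055148, chr8:72319033-72321656, plus strand), a related factor that supports the naive state, lay far from this borderline position. Its score ran from 0.0505 in Setdb1 WT + UNC to 0.0576 in Suv39h DKO, with a median of 0.0519. The 2 following bins were about as high (means of 0.0538 and 0.0481), and the bin at +500 kb was in B in all 8 libraries. The bin at -500 kb was higher in the Setdb1 line (0.0178) than in the Suv39h line (0.0106), by a difference of -0.00722 ± 0.00186 for Suv39h minus Setdb1 (adjusted p = 0.0398).

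Esrrb, Tfcp2l1 and Tbx3 encode further factors of the naive network. Esrrb (ENSMUSG00000021255, chr12:86361117-86521628, plus strand), an orphan nuclear receptor gene of 160512 bases that spans 3 bins, scored 0.0450 (Suv39h WT + UNC) to 0.0524 (Setdb1 WT + UNC), and its middle bin was higher (mean 0.0560) than the bin of its start (0.0417). Every bin of its window was in A in all 8 libraries. With all 8 libraries, Esrrb was the only 1 of the 10 genes whose mean score did not overlap between lines. Esrrb was 0.0481 or more in the Setdb1 libraries and 0.0479 or less in the Suv39h libraries, a difference of -0.00279 between line means. Of all genes, 15.5% did not overlap between the lines. Without Setdb1 WT + UNC, Nanog did not overlap between the lines either, and the share of all genes was not counted without that library. None of the 3 Esrrb bins passed the limma test between lines (lowest adjusted p = 0.245).

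Tfcp2l1 (ENSMUSG00000026380, chr1:118627945-118685168, plus strand), a target of STAT3 that promotes self-renewal, scored 0.0442 (WT), 0.0420 (WT + UNC), 0.0433 (KO) and 0.0409 (KO + UNC) in Setdb1 cells, and 0.0321 (WT), 0.0439 (WT + UNC), 0.0379 (DKO) and 0.0396 (DKO + UNC) in Suv39h cells. Suv39h WT was the low library, and the other 7 lay between 0.0379 and 0.0442. A fixed B border stood close to the gene. The bins at -500 and -400 kb were in B in all 8 libraries (means of -0.0285 and -0.0161), and that at -300 kb was in A in all 8 (mean 0.0243). Tbx3 (ENSMUSG00000018604, chr5:119670669-119684724, plus strand), a T-box factor gene, scored 0.0296 (Setdb1 KO) to 0.0358 (Suv39h WT), inside an A run of 15.8 to 16.6 Mb that was the longest of the 10. Its own bin did not differ between lines beyond the spread (0.00163 ± 0.00199, adjusted p = 0.649), but 3 of its 10 flank bins did, when 8.64% of all bins passed. They were higher in the Suv39h line by 0.00927 ± 0.00195 at -400 kb (adjusted p = 0.019995), 0.00849 ± 0.00207 at +300 kb (adjusted p = 0.0336) and 0.00854 ± 0.00232 at +400 kb (adjusted p = 0.0482). None of these 3 bins held a coding gene.

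Prdm14 (ENSMUSG00000042414, chr1:13113457-13127163, minus strand) encodes a regulator of the ground state and of germ cell fate. Its score was 0.0330 (WT), 0.0281 (WT + UNC), 0.0323 (KO) and 0.0242 (KO + UNC) in Setdb1 cells, and 0.0365 (WT), 0.0342 (WT + UNC), 0.0333 (DKO) and 0.0301 (DKO + UNC) in Suv39h cells. Untreated libraries of each background were higher than the treated ones, and Setdb1 KO + UNC was lowest. All bins of its window were in A in all 8 libraries, and its own bin was the highest of the window in 7 of 8. The length of the A run around the gene varied, from 1.4 Mb in Suv39h WT to 4.6 Mb in Setdb1 KO. No other library exceeded 2800 kb. By percentile Prdm14 had the widest range of the 10 genes, from 54.3 to 79.9.

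Over the 102 bins of all windows, with shared bins counted once, 88 were in A and 10 in B in all 8 libraries, and 4 were mixed. Thus 96.1% of window bins had 1 sign (95% exact binomial interval 90.3% to 98.9%, counting error only, neighbouring bins not being independent), and 87% of all bins did. Of the 102 bins, 86.3% were in A in all 8 libraries, against 38.9% of all bins. The 4 mixed bins were those named above, 2 beyond Klf4, 1 beside the Nanog and Dppa3 island and 1 before Sox2. In the 11 contrasts, 97.1% to 100% of window bins kept their sign. The lowest value was that of Setdb1 KO + UNC against Setdb1 WT + UNC, in which 3 bins went from A to B and 93.7% of all bins kept their sign. That contrast rests on the library that stood apart. In Setdb1 KO against Setdb1 WT, 102 of 102 window bins and 96.8% of all bins kept their sign. Among contrasts without Setdb1 WT + UNC the lowest share was 98.0%, in Suv39h DKO + UNC against either of the Suv39h WT libraries, where 94.95% (untreated) and 95.4% (treated) of all bins kept theirs.

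**Figure D2:**
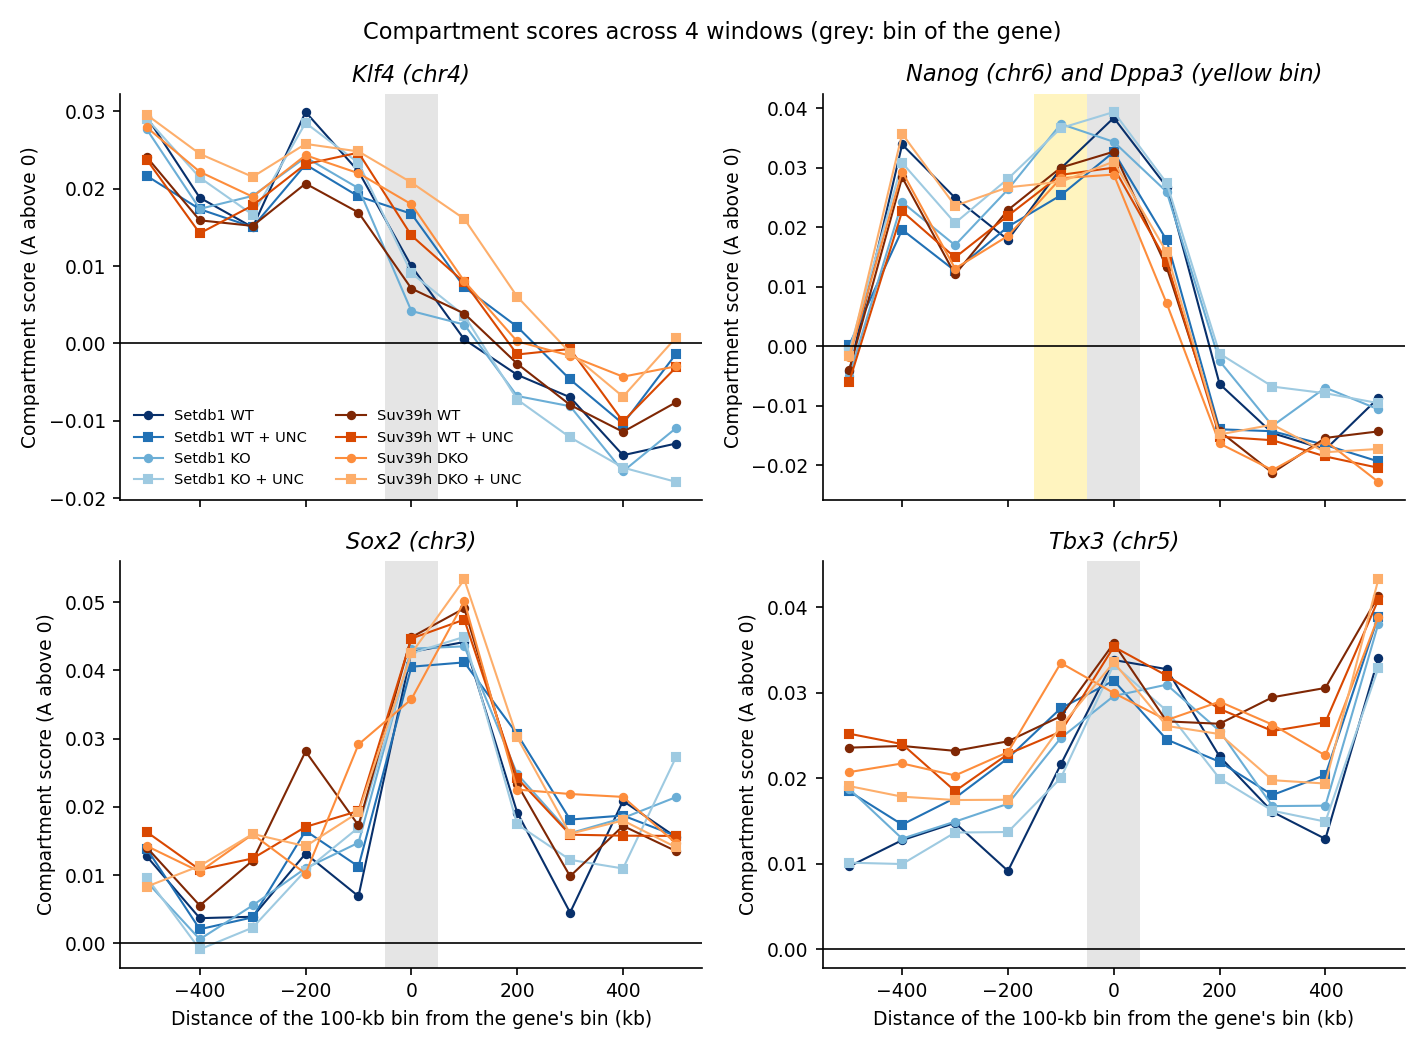
Compartment score (y axis, A above 0) of each 100-kb bin by distance from the gene's bin (x axis, kb, in order of coordinates) for the windows of Klf4, Nanog with Dppa3, Sox2 and Tbx3. Each line is a library (blue, Setdb1 line; orange, Suv39h line; squares, UNC0642), grey marks the bin of the gene and yellow that of Dppa3. Klf4 lies on a slope that crosses 0 near +200 kb, Nanog and Dppa3 on an island with B bins from +200 kb, and Sox2 on a peak of 2 bins.

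To ask how stable the genes were, changes of at least 0.01 were counted in 11 contrasts of 1 library against another. Of 110 gene and contrast pairs, 5 (4.55%) reached 0.01, against 5.05% over all genes, and no gene of the 10 changed sign in any contrast, when 1.94% to 4.09% of all genes did. In the Setdb1 line none of the 10 genes reached 0.01 in Setdb1 WT + UNC against Setdb1 WT (6.62% of all genes did), in Setdb1 KO against Setdb1 WT (1.42%), in Setdb1 KO + UNC against Setdb1 WT (1.64%) or in Setdb1 KO + UNC against Setdb1 KO (0.965%). Dppa3 was called in Setdb1 KO + UNC against Setdb1 WT + UNC, where it was higher by 0.0113 (10.3% of all genes were called). Without Setdb1 WT + UNC, the matching SETDB1 comparison is that of untreated cells, where Dppa3 was higher in Setdb1 KO by 0.00745.

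In the Suv39h line, Tfcp2l1 was higher in Suv39h WT + UNC than in Suv39h WT by 0.0118 (3.26% of all genes called). Against Suv39h WT, Klf4 was higher by 0.0109 in Suv39h DKO (4.87%) and, with the inhibitor added, by 0.0137 in Suv39h DKO + UNC (6.55%). None of the 10 genes was called in Suv39h DKO + UNC against Suv39h DKO (5.08%) or against Suv39h WT + UNC (4.8%). Between the untreated lines, Tfcp2l1 was lower in Suv39h WT than in Setdb1 WT by 0.0122, a change of -0.0122, when 10% of all genes were called. The contrasts of a line share libraries. The Klf4 call in Suv39h DKO was lost after quantile normalization, where the change was 0.00874. The Tfcp2l1 calls both rest on the low Suv39h WT library, and the Klf4 calls share Suv39h WT as control. With the mean of the gene's bins and 2 bins on each side, none of these 5 calls was kept, and Prdm14 was called against Suv39h WT in both treated Suv39h libraries. Both Prdm14 calls rest on a high Suv39h WT library (0.0317). Every other library lay between 0.0193 and 0.0252 on this measure, untreated Suv39h DKO (0.0228) among them. The share of all genes called on this measure was not counted.

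**Figure D3:**
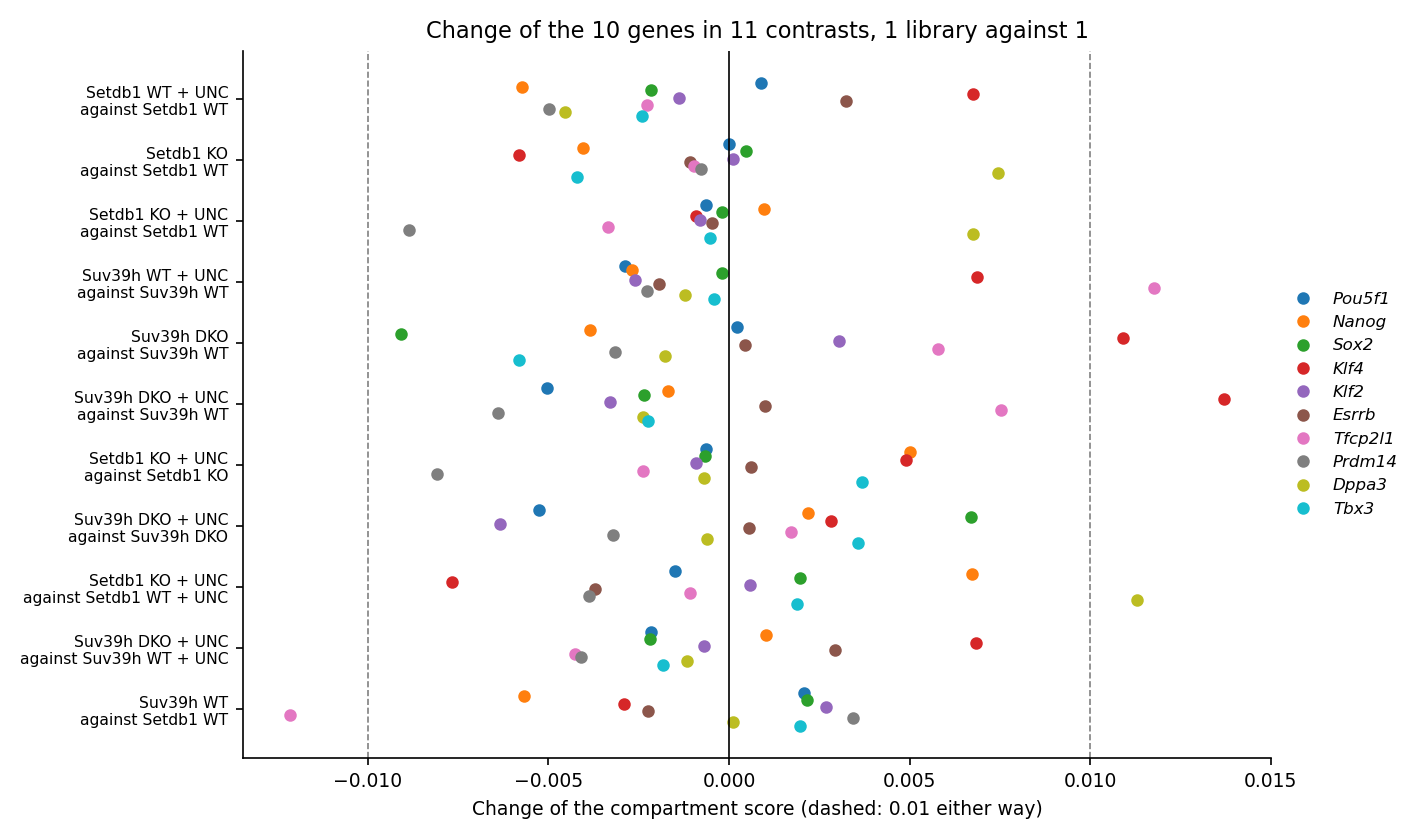
Change of the compartment score (x axis) of each of the 10 genes (coloured points) in 11 contrasts (rows), 1 library against 1, with no replicates. Dashed lines mark 0.01 either way. The 5 points beyond them are Tfcp2l1 in 2 contrasts, Klf4 in 2 and Dppa3 in 1.

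To ask whether UNC0642 moved the genes in the same way across backgrounds, the treated and untreated libraries of the 4 backgrounds were set side by side. In the Setdb1 KO background the treated cells also had 2 days of 4-hydroxytamoxifen in place of 5, and the effects of these differences cannot be told apart there. Treated libraries scored higher for Klf4 and lower for Prdm14, Dppa3 and Klf2 in all 4, so that 4 of the 10 genes had 1 sign, against 11.8% of all genes. For Klf4 the changes were 0.00676 (Setdb1 WT), 0.00491 (Setdb1 KO), 0.00687 (Suv39h WT) and 0.00281 (Suv39h DKO). For Prdm14 they were -0.00499, -0.00809, -0.00228 and -0.00322 in the same order. Those of Dppa3 ran from -0.00453 to -0.000600 and those of Klf2 from -0.00633 to -0.000917. Each of these changes was smaller than 0.01. Without Setdb1 WT + UNC, 5 of the 10 genes (Pou5f1 added, lower in treated libraries) had 1 sign in the other 3 backgrounds, against 26.8% of all genes. In limma over all bins, the UNC0642 difference was 0.00534 ± 0.00189 for Klf4, -0.00465 ± 0.00194 for Prdm14 and 0.00516 ± 0.00184 for the last bin of Esrrb, each with an adjusted p of 0.957. The first and middle bins of Esrrb went the other way (-0.00103 ± 0.00232 and -0.00230 ± 0.00209). Klf2 and Dppa3 had differences of -0.00281 ± 0.00193 and -0.00176 ± 0.00188. None of the 12 gene bins passed at an adjusted p of 0.05, nor did any bin of the genome (0%). At an unadjusted p under 0.05, 3 of the 12 gene bins and 4.95% of all bins were found.

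Tfcp2l1 was the only 1 of the 10 genes with UNC0642 changes of opposite sign in the lines, a pattern found in 10.9% of all genes. It changed by -0.00226 in Setdb1 WT and by -0.00239 in Setdb1 KO, and by 0.0118 in Suv39h WT and 0.00172 in Suv39h DKO. The line by UNC0642 term was 0.00907 ± 0.00454 (adjusted p = 0.9997), so the difference between lines did not pass the test. No gene bin and no bin of the genome (0%) passed for this term. At an unadjusted p under 0.05 it found none of the 12 gene bins and 3.67% of all bins.

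**Figure D4:**
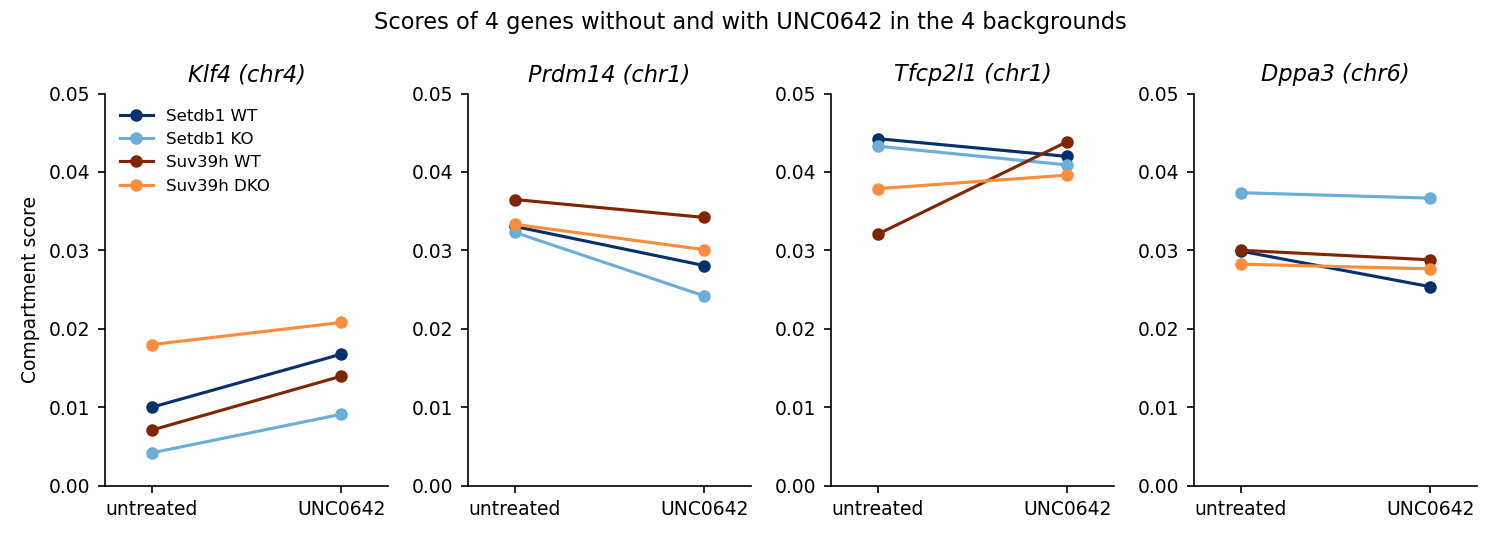
Compartment score (y axis) of Klf4, Prdm14, Tfcp2l1 and Dppa3 in untreated and UNC0642-treated libraries (x axis), joined within each of the 4 backgrounds (colours), 1 library at each point. Klf4 is higher and Prdm14 and Dppa3 are lower in the treated library in all 4 backgrounds, and Tfcp2l1 is lower in the treated Setdb1 libraries and higher in the treated Suv39h libraries.

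Loss of SETDB1 was examined as Setdb1 KO against Setdb1 WT with and without UNC0642, 2 libraries against 2. Both KO libraries had 4-hydroxytamoxifen and neither WT library did, so these differences may hold an effect of the drug, which was not tested. Of the 10 genes, 8 had changes of 1 sign in both states, against 51.6% of all genes. This count uses Setdb1 WT + UNC and includes Pou5f1, whose score was the same in untreated Setdb1 WT and Setdb1 KO to 3 digits. Dppa3 was higher by 0.00937 ± 0.00266 (adjusted p = 0.345) and Klf4 lower, with a difference of -0.00674 ± 0.00267 (adjusted p = 0.501). Again 0 of 12 gene bins and 0% of all bins passed at an adjusted p of 0.05, and at an unadjusted p under 0.05 the counts were 2 of 12 and 9.10% of all bins. Without Setdb1 WT + UNC, 1 of 12 gene bins and 3.79% of all bins had an unadjusted p under 0.05, and none of the 12 passed (lowest adjusted p = 0.9996).

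For SUV39H1/2, Klf4 was higher in Suv39h DKO than in Suv39h WT by 0.00888 ± 0.00267 (adjusted p = 0.386), and Sox2 had a difference of -0.00563 ± 0.00298 (adjusted p = 0.576). Klf4 thus had differences of opposite sign for the loss of SETDB1 and of SUV39H1/2, each in a separate line, and these were not tested against each other. Of the 10 genes, 6 had SUV39H1/2 changes of 1 sign with and without UNC0642, against 57.1% of all genes. None of the 12 gene bins passed, and 0% of all bins did. At an unadjusted p under 0.05, 1 of 12 gene bins and 9.60% of all bins were found. The unadjusted hit was Klf4.

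Between the lines, 8.64% of all bins passed in limma, but none of the 12 gene bins did (lowest adjusted p = 0.132, for Klf4, with a difference of 0.00495 ± 0.00189). Of the 102 window bins, 9 passed, all of them flank bins, namely 1 beside Pou5f1, 2 on the Nanog side of the island, 2 before Sox2, 1 before Klf2 and 3 around Tbx3. Without Setdb1 WT + UNC, 13 window bins and 12.2% of all bins passed. By overlap, 13 of the 102 window bins were separate between the lines, 9 of them higher in the Suv39h line, against 13.1% of all bins. The 4 Setdb1 libraries come from 1 line and the Suv39h libraries from the WT clone and the DKO clone, so these p-values measure the spread between these libraries only.

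**Figure D5:**
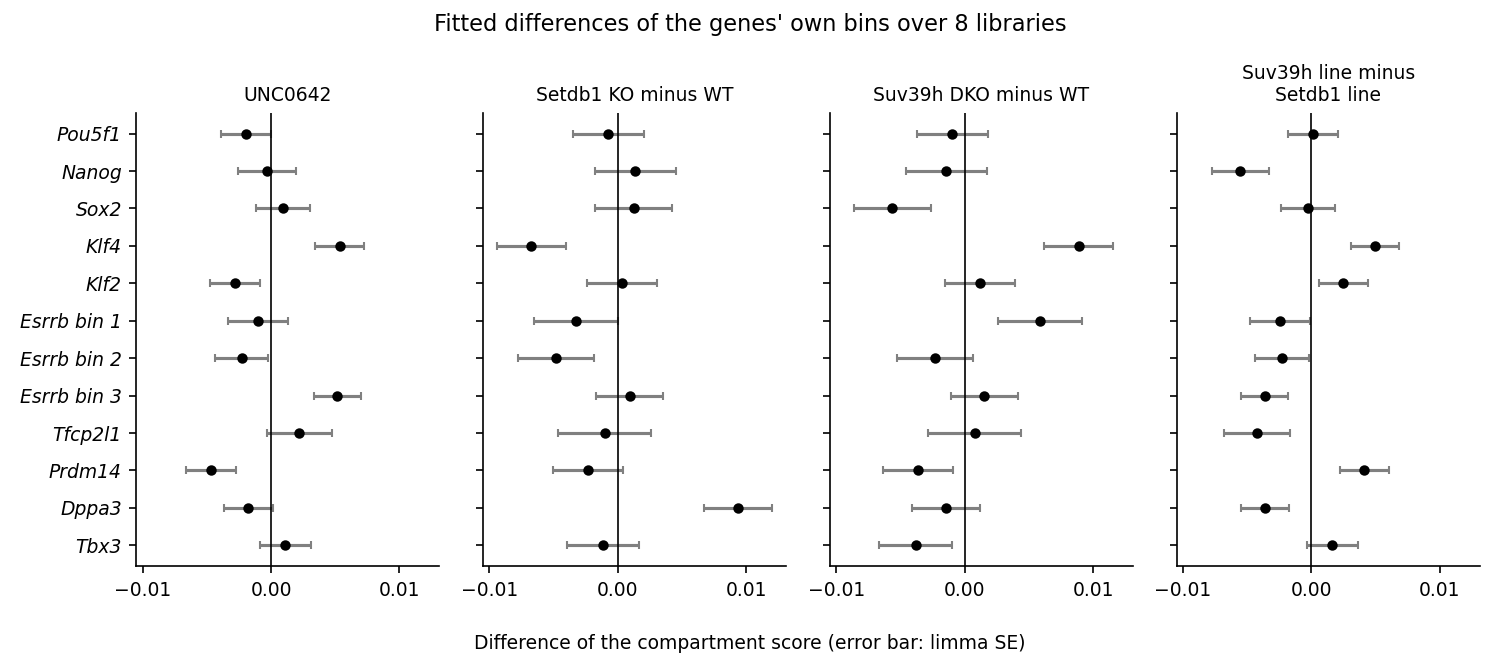
Fitted difference of the compartment score (x axis, points) with its limma SE (bars) for the 12 bins that hold the 10 genes (rows) and 4 terms (panels), from a fit over 8 libraries. None of the 12 bins passed at an adjusted p of 0.05 for any term, and the largest differences are those of Dppa3 on SETDB1 loss (0.00937) and Klf4 on SUV39H1/2 loss (0.00888).

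The genes were then set beside 3 lists from the same biology, for which the values over all genes are again 70.8% in A in all 8 libraries and a median percentile of 51.0. Of 14 other pluripotency-associated genes, 13 were in A in all 8 libraries, with a median chromosome percentile of 67.7. All 5 genes of LIF signalling were in A in all 8 libraries (median 61.8), as were 6 of 7 genes that repress the naive state or mark the state that follows it (median 72.5). Over the 3 lists, 20 of 286 gene and contrast pairs (6.99%, against 5.05% over all genes) reached 0.01, and without Setdb1 WT + UNC 13 of 234 did (5.56%, against 4.29% over all genes). With all libraries, the lists differed. The share was 14 of 154 (9.09%) for the other pluripotency-associated genes, 3 of 55 (5.45%) for LIF signalling and 3 of 77 (3.90%) for the third list. Fgf5, a growth factor gene switched on as cells leave the naive state, was the only gene in B in all 8 libraries (-0.0170 to -0.00921, mean percentile 13.9). Dppa4, which lies next to Dppa2 on chromosome 16, was slightly negative in Setdb1 WT + UNC (-0.000449) and between 0.00584 and 0.0218 in the other 7 libraries, so its sign change rests on the library that stood apart. Zfp42 (also Rex1, a marker of the naive state) and Jak1 (the kinase that passes on the LIF signal) had low placements like that of Klf4, with mean percentiles of 24.3 and 24.9. Tcf7l1, a repressor of the naive network, stood highest at 96.1, and Gbx2, a target of STAT3, followed at 93.1.

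Prdm14 and Tbx3 had the widest percentile ranges, and the genes outside their windows whose scores correlated best with theirs over the 8 libraries were sought among genes with as wide a score range or wider. For Prdm14, among 5499 genes, these were Vmn2r52 (Pearson r = 0.932 over 8 libraries) and the neighbours Vmn1r224 and Vmn2r108, which share a bin (r = 0.891). The correlation concerns the pattern over libraries and not the level, as these vomeronasal receptor genes were in B in all 8 libraries (-0.0351 to -0.0116) and Prdm14 was in A. Bloc1s5, the next by r (r = 0.861), named after its values were seen, was in A (0.0221 to 0.0363). For Tbx3, among 16666 genes, they were Nup153 (r = 0.964) and Nppc (r = 0.922), which were in A like Tbx3, and the next by r, Olfr447 and Olfr446 (r = 0.907), named after their values were seen, were in B. These values of r were picked as the highest among the genes compared, over 8 libraries, and are given as a description.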

How the data were processed

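The authors deposited 1 compartment score per bin and library. Per the study's methods, chromatin was cut with DpnII, reads were aligned to mm10 in the 4DN Hi-C pipeline (version 43), contacts with a mapping quality above 10 were kept, and Juicer Tools computed, for every autosome, the leading eigenvector of contacts within the chromosome after KR balancing, at 100 kb. The experiment was repeated. Whether a file holds a single repeat or a pool is not given in the sources used here. Each chromosome averages 0 in each library. A step that subtracts a mean is inferred from this, and the sign of that mean is unknown.

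The 23972 bins scored in all 8 libraries were used. Genes were taken from GENCODE vM21. A gene's value was the mean of its bins, and its percentile was taken among genes of its chromosome. limma 3.58.1 (R 4.3.3) was fitted over all bins with background (line and genotype) as a block and UNC0642 as a term, with Benjamini-Hochberg adjustment over all bins, and was tested on simulated scores. The line by UNC0642 term was added in a further fit. Other calculations used Python 3.11.15 with pandas 2.3.3. All 10 genes were named, and of the other lists the 3 lowest and 2 highest by percentile and any gene in B. The genes, lists and tests were chosen with earlier results of these data known. No column was left unmapped. Alternatives concerned centring, scaling, the value of a gene, the threshold, flank width, the limma settings and libraries left out. Those without Setdb1 WT + UNC for placement, changes, flanks, UNC0642 signs and the other lists were chosen after seeing the data.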

Additional observations from a re-analysis of the deposited data

Results flagged for a closer look

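Tfcp2l1 stood out because its UNC0642 change had opposite signs in the lines, negative in both Setdb1 backgrounds and positive in both Suv39h backgrounds. The fitted difference between the lines was 0.00907 (Suv39h minus Setdb1, SE 0.00454, adjusted p = 0.9997 in limma). It rests largely on the low score of Suv39h WT (0.0321), as the change was 0.0118 in that background and 0.00172 in Suv39h DKO. Each group held 1 library, so no library could be tested as an outlier within its group.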

How the results depend on the processing

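All 10 genes stayed in A in all 8 libraries under both scalings, with the start bin only, with 2 bins added on each side, with the implied mean added and without Setdb1 WT + UNC. With the mean subtracted, 9 did, Klf4 being the exception. The 5 calls of 110 became 2 with 2 bins added on each side and 0 at a threshold of 0.02. By contrast, the threshold of 0.02 left 0 called genes in the 5 contrasts that had 1. With 2 bins added on each side, 0 remained in Suv39h DKO against Suv39h WT, in Suv39h WT against Setdb1 WT and in Setdb1 KO + UNC against its treated control. Quantile normalization left 0 in Suv39h DKO against Suv39h WT, where Klf4 changed by 0.00874. The share of all genes called was not counted with 2 bins added, at 0.02 or after quantile normalization. These counts therefore cannot be set against all genes. The share of window bins with 1 sign, 96.1%, was 90.1% with flanks of 1 Mb and 99.0% (98.96%) over bins that lay 0.005 or more from 0 in the control. No gene bin passed in limma for any term under any setting tried, including no background block, robust or trend priors, GC removal and, for UNC0642, each background pair left out (0 to 0). The window bins that differed between lines numbered 9 (8.64% of all bins did), 5 with no background block (4.63% of all bins) and 13 without Setdb1 WT + UNC (12.2% of all bins). Without that library, 4 of 90 pairs were called (4.29% over all genes), 13 pairs in place of 20 in the 3 other lists, and 97.1% of window bins had 1 sign. No paired analysis by replicate number was possible because the labels give none. The causes of these shifts were not tested. No depth could be assigned to a file, so no limit from depth was set.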
